A study of Rattus norvegicus with 18 samples.

Results

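The RNA of 10 enzymes was followed through the hippocampus of rats fed ethanol and of rats from which it had been withdrawn: the genes that oxidize ethanol, that oxidize the acetaldehyde it forms, and that join the resulting acetate to coenzyme A. The 10 genes (Adh5, Adh1c, Cat, Aldh2, Aldh1b1, Aldh1a1, Aldh3a2, Aldh9a1, Acss1 and Acss2) were taken by symbol from the 38445 genes of the count files. All 10 entered the test with 17853 genes in all.

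RNA-Seq libraries came from the dorsal hippocampus of 18 adult male Sprague Dawley rats of wild-type genotype, 75 to 85 days old when bought, with 6 rats in each of 3 groups and 1 library for each rat. Every rat was fed a Lieber-DeCarli liquid diet, a complete liquid food given as the only food and fluid. The control group received it without ethanol, the ethanol group had 9% v/v ethanol in it for 16 days up to collection (0 h of withdrawal), and the withdrawal group had the 9% diet for 15 days and then the control diet for 24 h. In both ethanol-fed groups a gradual introduction at lower ethanol content came before the 9% diet and is not counted in these days. The total count per rat ran from 30873228 to 42679748, and replicates are separate rats.

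Alcohol dehydrogenases in the cytosol oxidize ethanol to acetaldehyde, which is the main route in liver. Brain is known for low class I alcohol dehydrogenase, and catalase in peroxisomes, which can oxidize ethanol with hydrogen peroxide, and the microsomal Cyp2e1 are the routes usually named there. Aldehyde dehydrogenases turn the reactive acetaldehyde into acetate, chiefly the mitochondrial Aldh2. Acetyl-CoA synthetases then make acetyl-CoA, Acss1 in mitochondria for energy metabolism and Acss2 in cytosol and nucleus, where the acetyl-CoA serves lipid synthesis and histone acetylation.

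The index sequences in the libraries' names came from 3 sets, and the sets follow the groups. The 6 controls carried the first set, the 6 ethanol rats and withdrawal rats 1 and 2 the second, and withdrawal rats 3 to 6 the third, so that for each comparison with controls the diet and the index set cannot be told apart. Tissue content also differed between rats. The summed CPM (a gene's count relative to the library total, scaled by TMM, the trimmed mean of M-values) of 8 choroid plexus markers was 1116 to 2326 in controls, 1503 to 5472 in ethanol rats and 29.7 to 5498 in withdrawal rats, with withdrawal rats 4 and 5 at 29.7 and 33.1 and the marker Otx2 under 1 count per rat. The sum of 8 hippocampal markers was 303.0 in withdrawal rat 5 and 516.2 in withdrawal rat 1, below the 608.6 to 961.4 of the other rats, and Fibcd1 among these markers was under 1 count per rat.

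Levels in control rats were compared per kilobase of exon, as RPKM (the same CPM divided by the exon length in kilobases). Aldh2 stood at the top with 35.4 ± 2.20 RPKM (SD, n = 6), a level above that of 88.1% of the genes tested. Adh5 followed at 32.98 ± 1.35 RPKM, Cat at 29.2 ± 2.86 and Acss2 at 26.7 ± 1.01, and the ranges over rats of neighbours in this order overlapped. A gap between ranges separated these 4 from Aldh3a2 with 19.7 ± 0.916 RPKM, whose range overlapped that of Aldh1a1 with 17.2 ± 2.67. Aldh9a1 at 12.5 ± 0.717 RPKM and Acss1 at 11.1 ± 0.697 formed the next overlapping pair. Aldh1b1 lay apart at 5.86 ± 0.438 RPKM, near the middle of all genes tested. Adh1c was last by a wide margin at 0.113 ± 0.0361 RPKM, a level above that of only 3.66% of the genes tested.

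**Figure D1:**
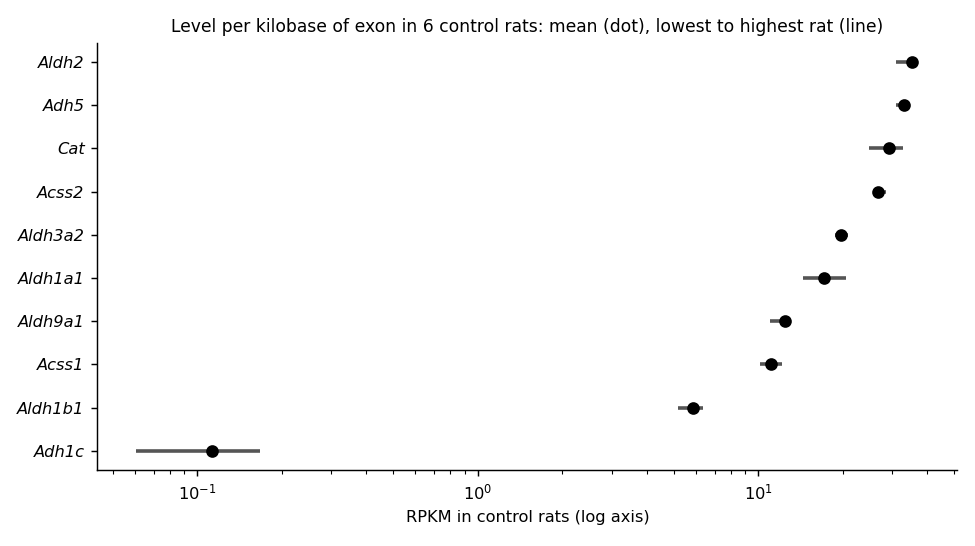
Level of the 10 enzyme genes in the 6 control rats, in RPKM on a log axis, with the mean as a dot and the lowest to highest rat as a line. Aldh2, Adh5, Cat and Acss2 lie between 26.7 and 35.4 RPKM, and Adh1c lies at 0.113 RPKM, below the other 9 genes.

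The ethanol-oxidizing step was carried by very unequal amounts of RNA. Adh5, the class III enzyme best known for clearing formaldehyde bound to glutathione, lies on chromosome 2 (chr2:243728500-243740907, plus strand, Rnor_6.0), in the cluster that also holds the class I gene Adh1c (chr2:243550655-243562243, plus strand). Over the 6 control rats Adh5 had 9661 counts and Adh1c 43. The per-kilobase ratio of Adh1c to Adh5 was 0.00341 ± 0.00106 in controls, 0.00587 ± 0.00294 in ethanol rats and 0.00564 ± 0.00651 in withdrawal rats (SD, n = 6 each). The withdrawal mean rests on rat 5, without which it was 0.00305 ± 0.00163 (SD, n = 5). Among the other genes of the cluster, Adh7 had 32 counts in the 18 rats together, Adh4 and Adh6 had 1 each and Adh6a had 0, which allows up to 0.00459 CPM (3 counts of the total, counting error only). Cyp2e1 had 59 counts in the 18 rats and was not tested.

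The promoters of the pair are printed because the genes lie in the same cluster on 1 chromosome with levels this far apart. Each is RefSeq sequence of the newer build GRCr8, which differs from the build of the counts, and runs from 250 bases before to 50 bases after the start of the gene, 5′ to 3′ on the gene's strand. Capitals mark matches on either strand to the GC box GGGCGG and the CCAAT box CCAAT, which share no bases with each other here. The Adh5 window (chr2:229648307-229648606, plus strand) was 63.7% G and C with 28 CpG dinucleotides, more than 86.4% of the 27457 promoters in the table, and held 2 GC boxes and 1 CCAAT box. The Adh1c window (chr2:229470453-229470752, plus strand) was 43.3% G and C with 3 CpG dinucleotides, no GC box and 2 CCAAT boxes.
Adh5: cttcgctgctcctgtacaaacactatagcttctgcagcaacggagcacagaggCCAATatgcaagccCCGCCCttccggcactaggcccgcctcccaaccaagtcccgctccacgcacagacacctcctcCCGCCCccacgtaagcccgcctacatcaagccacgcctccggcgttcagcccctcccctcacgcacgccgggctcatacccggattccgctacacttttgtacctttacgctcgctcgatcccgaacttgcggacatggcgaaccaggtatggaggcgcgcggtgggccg
Adh1c: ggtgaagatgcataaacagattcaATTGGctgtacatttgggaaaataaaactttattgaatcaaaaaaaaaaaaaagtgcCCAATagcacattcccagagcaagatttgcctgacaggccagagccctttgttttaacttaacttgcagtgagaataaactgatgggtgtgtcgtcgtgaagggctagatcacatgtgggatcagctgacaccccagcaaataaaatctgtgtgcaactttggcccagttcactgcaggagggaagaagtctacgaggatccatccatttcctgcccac

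To ask which enzymes differ after 24 h without ethanol, the withdrawal group was set against controls with limma-voom on all 17853 genes, with 3 surrogate variables and with differentially expressed (DE) meaning q < 0.1. Acss2 and Aldh1b1 were DE, both lower in withdrawal, and the remaining 8 enzymes were not. The 2 of 10 stand against 5.41% of all genes tested that were DE in this comparison, and 2.55% that were DE and lower. The median log2 fold change was -0.08 over the 10 enzymes and 0.00030 over all genes tested, with 8 of the 10 below 0. In bulk tissue, fewer cells of a type and less RNA per cell cannot be told apart.

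Acss2, the cytosolic and nuclear acetyl-CoA synthetase (chr3:151032925-151075856, plus strand, Rnor_6.0), ran from 75.1 to 83.4 CPM in controls with a median of 78.0. In ethanol rats it ran from 69.5 to 86.5 CPM with a median of 77.4, and in withdrawal rats from 63.4 to 73.8 CPM with a median of 69.7. All 6 withdrawal rats were below all 6 controls, an arrangement found in 0.538% of the genes tested, while the ethanol rats overlapped both groups. The log2 fold change for withdrawal vs. control was -0.20 ± 0.049 (SE), a level 12.8% lower, with q = 0.0468 by limma-voom. An exact two-sided permutation test of the mean log2 CPM gave p = 0.00216, the smallest that 6 against 6 rats allow.

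Aldh1b1, a mitochondrial aldehyde dehydrogenase that accepts acetaldehyde (chr5:61382351-61387359, plus strand, Rnor_6.0), ran from 11.4 to 14.0 CPM in controls with a median of 13.2. It was 11.2 to 15.2 CPM in ethanol rats with a median of 13.0, and 9.08 to 11.8 CPM in withdrawal rats with a median of 10.1. Withdrawal rat 2, at 11.8 CPM, was the only one of its group inside the control range, and 5 of 6 lay below every control. The log2 fold change for withdrawal vs. control was -0.31 ± 0.079 (SE), a level 19.2% lower, with q = 0.0516 by limma-voom and p = 0.00433 by the exact permutation test.

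**Figure D2:**
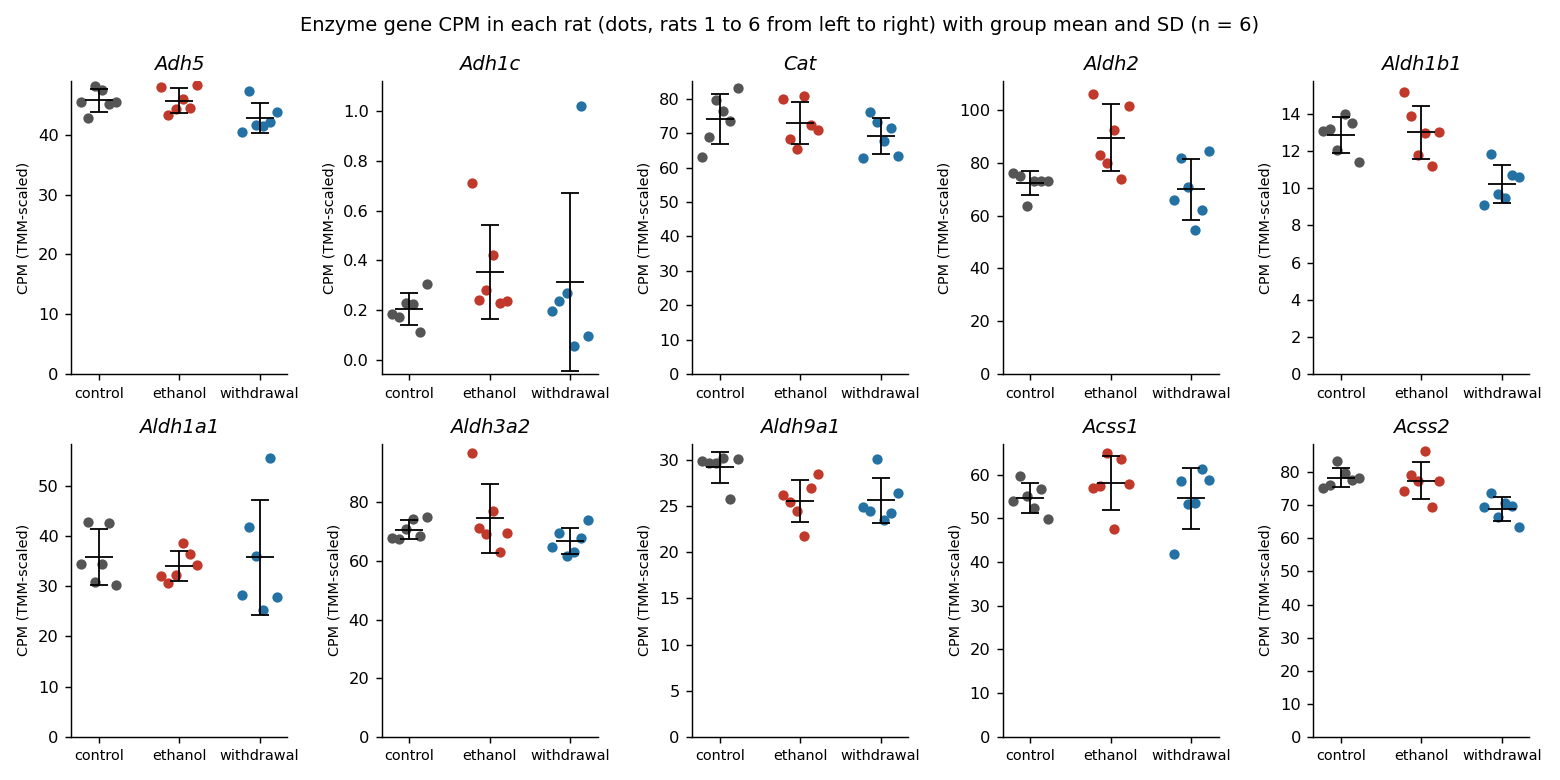
CPM of each enzyme gene in each rat (dots, rats 1 to 6 of a group from left to right), with the group mean and SD as bars (n = 6). In withdrawal, Acss2 lies between 63.4 and 73.8 CPM, below every control, and Aldh1b1 has 5 of 6 rats below every control.

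Both decreases kept their direction under other settings, and kept their call under most of them. Over 17 other ways to process or adjust the counts, the withdrawal vs. control log2 fold change of Acss2 stayed between -0.22 and -0.15 and that of Aldh1b1 between -0.32 and -0.29. For each gene q was under 0.1 in 12 of the 17. Of these, 1 is the same fit with the threshold lowered to 0.05, where Acss2 stayed DE and Aldh1b1 (q = 0.0516) did not. With single rats left out q was under 0.1 in 16 of 18 fits for Acss2 and 13 of 18 for Aldh1b1. Neither gene was DE without surrogate variables, where q was 0.150 for Acss2 and 0.139 for Aldh1b1, nor with 1 or 5 of them. Without withdrawal rat 6 neither was DE, with log2 fold changes of -0.16 (q = 0.230) and -0.29 (q = 0.203). Without control rat 3 Acss2 had q = 0.101, and Aldh1b1 had q = 0.102 to 0.113 without control rat 4 or 5 or withdrawal rat 1 or 3, so that 1 of the 2 genes was DE in each of those fits. Without withdrawal rats 1 and 5, those with the lowest hippocampal marker sums, both had q above 0.1, with log2 fold changes of -0.18 (q = 0.140) and -0.30 (q = 0.150). With the choroid plexus sum as a term in place of the surrogate variables neither was DE, at -0.20 (q = 0.154) and -0.30 (q = 0.209).

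**Figure D3:**
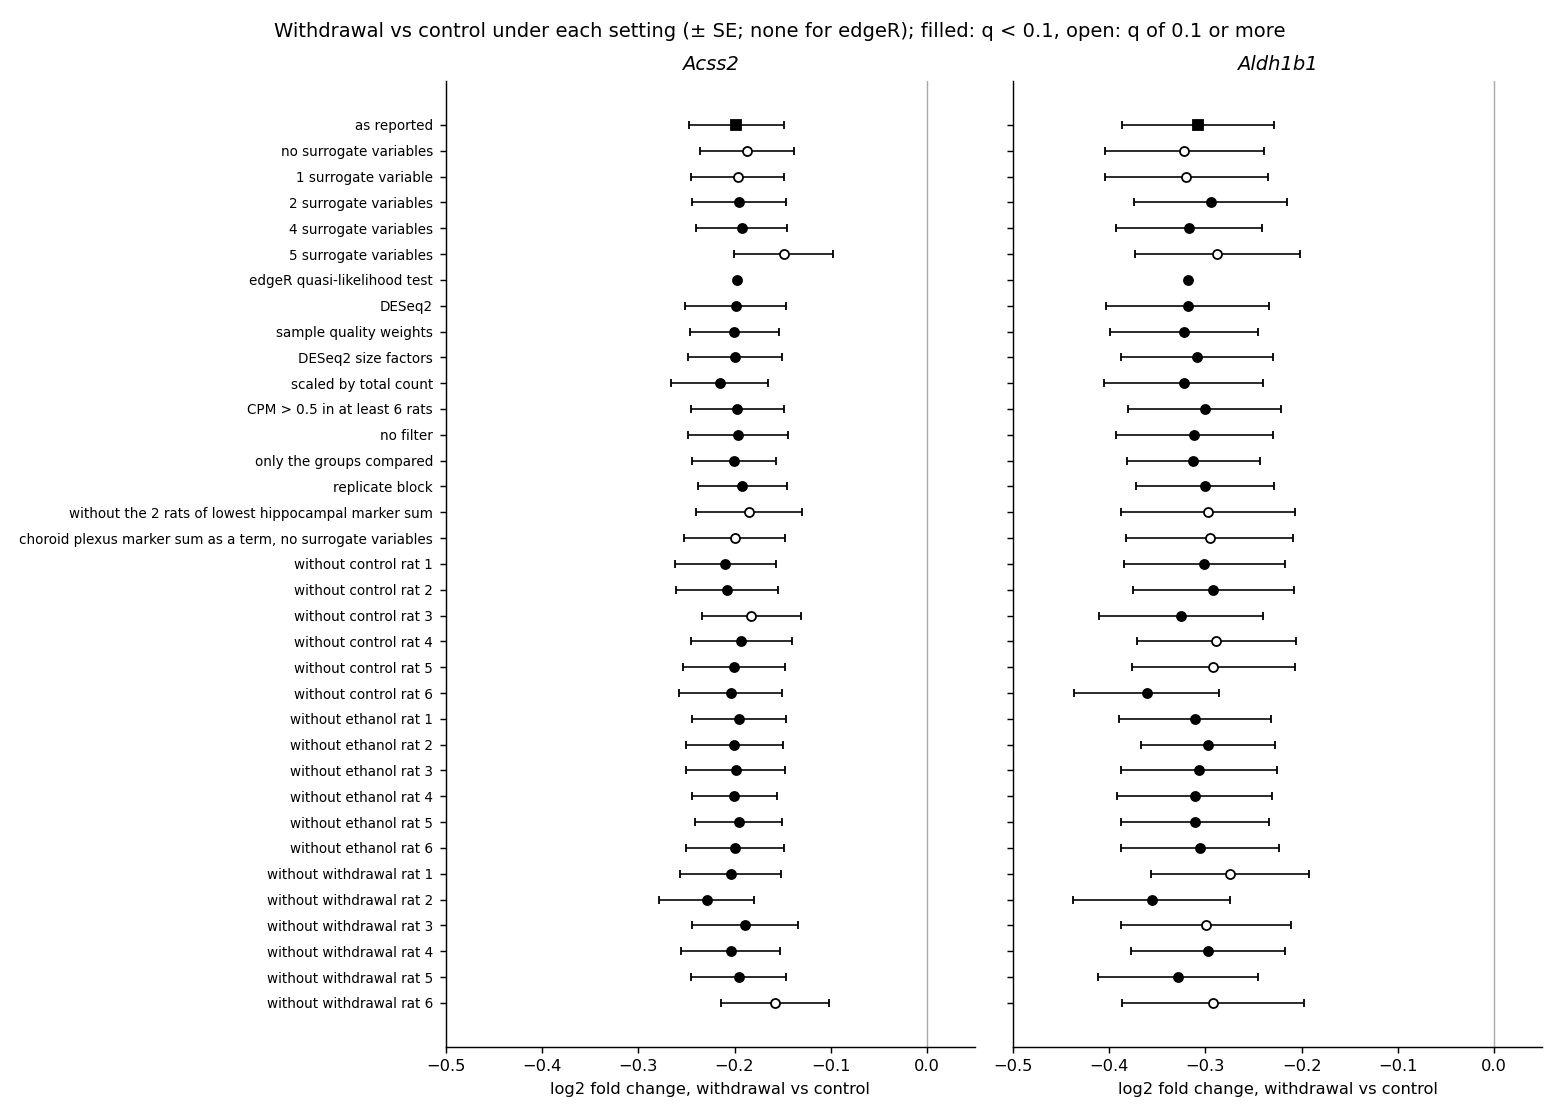
Withdrawal vs. control log2 fold change (± SE, none for edgeR) of Acss2 and Aldh1b1 as reported (square), under 16 other settings and with each of the 18 rats left out (circles), filled where q < 0.1. Values for Acss2 lie between -0.23 and -0.15 and for Aldh1b1 between -0.36 and -0.27, on the same side of 0 throughout.

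Some cell markers moved in the same comparison, in which 5.41% of all genes tested were DE. All 4 blood markers tested were DE and lower in withdrawal than in control, 4 of 8 endothelial markers were DE and higher, and of 8 astrocyte markers 2 were DE and higher and 1 DE and lower. Of 8 microglia markers 1 was DE and higher, and of 7 hippocampal markers tested 1 was DE and lower. Of 8 neuron, 8 thalamic, 7 leptomeningeal and 7 choroid plexus markers tested, 0 were DE. Of 8 oligodendrocyte markers 0 were DE by limma-voom (3 at an unadjusted p under 0.05), with 6 lower and a median of -0.13 on the log2 scale. Among 10 marker sums the one that Acss2 followed most closely over 18 rats, group means subtracted, was the oligodendrocyte sum (r = 0.46), and for Aldh1b1 it was the leptomeningeal sum (r = 0.57). The blood marker sum ran from 126.5 to 225.0 CPM in controls, 37.1 to 96.2 in ethanol and 41.6 to 150.7 in withdrawal rats. The part of these markers in the Acss2 and Aldh1b1 values was not tested.

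The promoters of these DE enzymes, again RefSeq GRCr8 with the same capitals, are printed because both genes were lower in withdrawal. The Acss2 window (chr3:164464453-164464752, plus strand) held 5 GC boxes, 1 CCAAT box and 19 CpG dinucleotides. The Aldh1b1 window (chr5:64858750-64859049, plus strand) held 1 CCAAT box, no GC box and 12 CpG dinucleotides. Of the 27457 promoters, 34.9% held a GC box and 37.7% a CCAAT box, and the median promoter had 7 CpG dinucleotides. Neither window matched the E-box CACGTG (6.65% of promoters), the cyclic AMP response element TGACGTCA (1.91%), the TATA box TATAAA (14.3%) or the sterol element TCACNCCAC (1.13%) on either strand.
Acss2: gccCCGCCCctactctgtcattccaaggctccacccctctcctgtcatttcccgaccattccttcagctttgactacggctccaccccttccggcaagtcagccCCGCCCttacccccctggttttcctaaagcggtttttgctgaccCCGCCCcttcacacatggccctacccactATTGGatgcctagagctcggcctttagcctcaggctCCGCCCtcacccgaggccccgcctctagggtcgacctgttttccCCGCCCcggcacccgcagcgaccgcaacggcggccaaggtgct
Aldh1b1: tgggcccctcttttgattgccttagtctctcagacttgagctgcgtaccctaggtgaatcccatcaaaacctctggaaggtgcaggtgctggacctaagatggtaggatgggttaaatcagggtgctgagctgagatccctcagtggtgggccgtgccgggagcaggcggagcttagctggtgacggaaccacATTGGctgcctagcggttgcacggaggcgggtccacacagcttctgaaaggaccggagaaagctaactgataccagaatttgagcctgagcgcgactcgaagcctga

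In ethanol vs. control, which asks what the diet itself does before any withdrawal, 0 of 10 enzymes were DE by limma-voom against 0.493% of all genes tested. At an unadjusted p under 0.05 there were 2, Aldh2 and Aldh9a1, against 12.5% of all genes tested. DESeq2 and edgeR also called 0 of 10, beside 429 and 96 genes in all, where limma-voom called 88. The comparison shares its controls with the one above, and the values of each are given side by side rather than compared.

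Aldh2, the chief acetaldehyde-clearing enzyme (chr12:40466418-40498813, plus strand, Rnor_6.0), ran from 63.5 to 76.1 CPM in controls with a median of 73.3. In ethanol rats it ran from 73.9 to 106.1 CPM with a median of 87.7, and in withdrawal rats from 54.6 to 84.4 CPM with a median of 68.4. Of the 6 ethanol rats, 5 lay above every control and ethanol rat 5 inside the control range, while withdrawal rats fell on both sides of it. The mean log2 CPM was 0.30 higher in ethanol than in control rats (exact permutation p = 0.00649). With surrogate variables the log2 fold change was 0.16 ± 0.058 (SE) with q = 0.258 by limma-voom, so the difference did not pass the threshold over all genes.

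Across rats Aldh2 tracked the choroid plexus content of the sample. After subtraction of group means, its log2 CPM correlated with that of the choroid plexus marker sum at r = 0.79 over 18 rats, given as a description, since both come from the same libraries. The highest Aldh2 values, in ethanol rats 1, 6 and 4 (106.1, 101.5 and 92.4 CPM), came with choroid plexus sums of 5472, 5107 and 3712 CPM, all above the control range. Withdrawal rat 6, with the highest sum of the 18 rats (5498 CPM), had 84.4 CPM of Aldh2. The lowest Aldh2 value, 54.6 CPM in withdrawal rat 4, came with a sum of 29.7 CPM. Ethanol rats 2, 3 and 5, whose sums of 1503, 1742 and 1975 CPM lay inside the control range, had 83.0, 79.9 and 73.9 CPM of Aldh2. With the choroid plexus sum as a term in place of the surrogate variables, a setting added after these values were seen, the log2 fold change for ethanol vs. control was 0.24 (q = 0.213 by limma-voom).

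**Figure D4:**
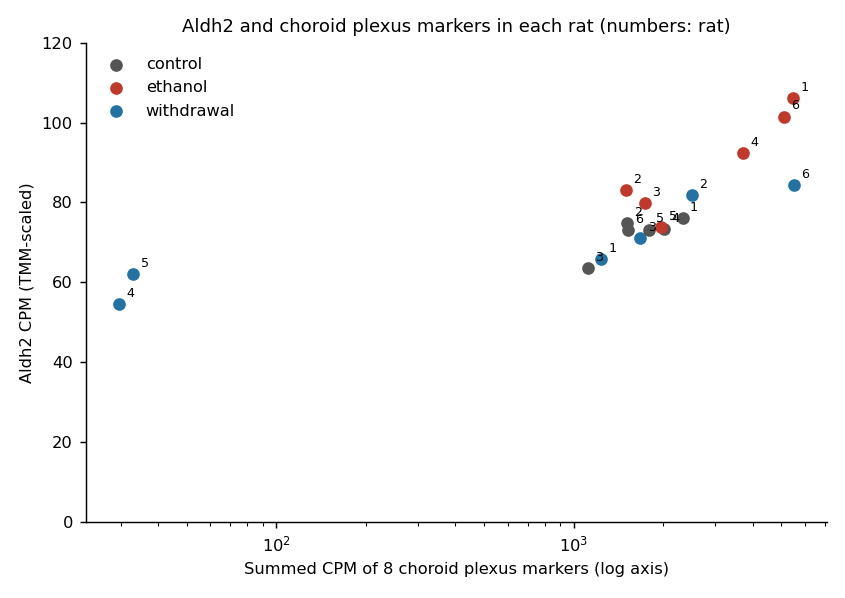
Aldh2 CPM (vertical axis, from 0) against the summed CPM of 8 choroid plexus markers (log axis) in each of the 18 rats, colored by group and numbered by rat. The 3 rats of highest Aldh2 are ethanol rats with sums of 3712 to 5472 CPM, and withdrawal rats 4 and 5, at 29.7 and 33.1 CPM, are among the lowest.

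Aldh9a1, which oxidizes aminoaldehydes on the way to carnitine and GABA besides acetaldehyde, was 25.8 to 30.2 CPM in controls with a median of 29.8. It was 21.7 to 28.5 CPM in ethanol rats with a median of 25.8, and 23.6 to 30.1 CPM in withdrawal rats with a median of 24.7. Of the controls, 5 of 6 lay at 29.7 CPM or above, as did 1 ethanol or withdrawal rat in all, and control rat 5 at 25.8 CPM lay among the treated rats. The log2 fold change was -0.19 ± 0.072 (SE) for ethanol vs. control (q = 0.298 by limma-voom; exact permutation p = 0.0130) and -0.17 ± 0.067 for withdrawal vs. control (q = 0.176; exact permutation p = 0.0260). Neither passed the threshold over all genes.

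In withdrawal vs. ethanol, which asks what changes within a day of stopping, 0 of 10 enzymes were DE by limma-voom against 2.72% of all genes tested (1.49% DE and lower), with 3 at an unadjusted p under 0.05 against 16.7% of all genes. These were Acss2 at -0.17 ± 0.055 (log2 fold change with its SE, and q = 0.134), Aldh1b1 at -0.26 ± 0.089 (q = 0.153) and Aldh2 at -0.15 ± 0.062 (q = 0.240). Every withdrawal rat was below the ethanol mean for all 3 genes, though no gene's groups were apart. By DESeq2, Acss2 and Aldh1b1 were DE and lower (q = 0.0782 and 0.0927), beside 6.16% of all genes DE. By edgeR 0 of 10 were DE, beside 532 genes in all. All 3 genes were DE and lower without surrogate variables (3.48% of all genes DE), with 1 of them (8.36%), and with 3 when ethanol rat 5 was left out (10.1%). Acss2 and Aldh1b1 were DE when withdrawal rat 2 was left out (5.63%). All 7 choroid plexus markers tested were lower in withdrawal than in ethanol rats (median -0.49 on the log2 scale), with 0 of them DE by limma-voom and 5 at an unadjusted p under 0.05. With their sum as a term in place of the surrogate variables, Aldh2 was at -0.18 (q = 0.332) and 0 of 10 enzymes were DE. The index set could be a term here, since withdrawal rats 1 and 2 share the set of the ethanol rats. With that term the difference rests on these 2 withdrawal rats against the 6 ethanol rats, so its q values come from fewer rats. Without surrogate variables the log2 fold changes were -0.17 for Acss2 (q = 0.0988), -0.34 for Aldh1b1 (q = 0.0616) and -0.36 for Aldh2 (q = 0.0933), and with the index set then added they were -0.11 for Acss2 (q = 0.633), -0.30 for Aldh1b1 (q = 0.444) and -0.27 for Aldh2 (q = 0.564).

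**Figure D5:**
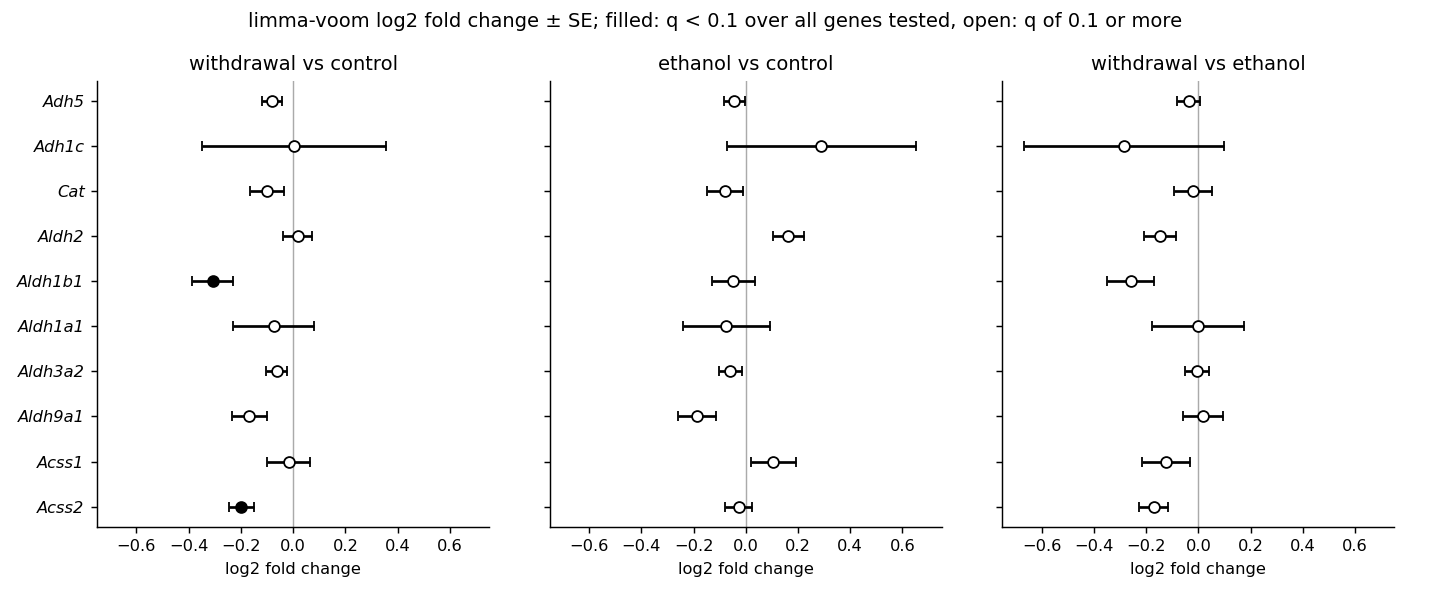
Log2 fold change ± SE (limma-voom) of the 10 enzymes in each of the 3 comparisons, filled where q < 0.1 over all genes tested. Acss2 (-0.20) and Aldh1b1 (-0.31) in withdrawal vs. control are the only filled points, and Adh1c has the widest error.

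The other ethanol-oxidizing genes showed small differences. Adh5 ran from 42.8 to 48.2 CPM in controls, 43.3 to 48.2 in ethanol and 40.4 to 47.3 in withdrawal rats, where 4 of 6 were below every control and withdrawal rat 2 stood above the other 5. Its log2 fold change for withdrawal vs. control was -0.08 ± 0.039 (SE; q = 0.264 by limma-voom), and the exact permutation p was 0.0498. Cat, the peroxisomal catalase (chr3:93379872-93412058, minus strand, Rnor_6.0), spread over 63.2 to 83.2 CPM in controls, 65.5 to 80.9 in ethanol and 62.9 to 76.0 in withdrawal rats, with log2 fold changes of -0.10 for withdrawal (q = 0.403) and -0.08 for ethanol (q = 0.672) vs. control. Single rats moved the withdrawal value between -0.15 (without withdrawal rat 3) and -0.035 (without withdrawal rat 6), and the ethanol value between -0.12 (without control rat 1) and -0.043 (without control rat 6).

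Adh1c passed the filter on low values only because 2 rats had more than 0.5 CPM, ethanol rat 1 at 0.709 and withdrawal rat 5 at 1.02. The counts per rat ran from 2 to 38, and the other 16 rats lay between 0.0558 and 0.420 CPM. All 6 ethanol rats were above the control mean of 0.203 CPM, with ranges that overlapped. The mean log2 CPM was 0.59 higher in ethanol than in control rats, given as a description, since no control passed the filter. The fitted log2 fold change with surrogate variables was 0.29 ± 0.36 (SE; q = 0.793 by limma-voom). Over 16 other settings the fitted value lay between 0.17 and 0.72, and with single rats left out between 0.14 and 0.42. Withdrawal rat 5, the highest, was also the rat with the lowest hippocampal and the highest leptomeningeal marker sum (303.0 and 639.9 CPM). Over the 18 rats the log2 CPM of Adh1c correlated with the hippocampal marker sum at r = -0.79 after subtraction of group means, a description that rests in part on this rat.

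The remaining enzymes were neither DE in a comparison nor apart between groups. Aldh1a1, a cytosolic aldehyde dehydrogenase that also makes retinoic acid (chr1:238222689-238264381, plus strand, Rnor_6.0), had the widest spread in withdrawal rats after Adh1c. It was 30.2 to 42.9 CPM in controls, 30.7 to 38.6 in ethanol and 25.3 to 55.5 in withdrawal rats, with a coefficient of variation of 31.96% in the last. Withdrawal rats thus held both the highest and the lowest value, in rats 5 and 4. Aldh3a2, the membrane-bound enzyme for long-chain fatty aldehydes (chr10:47525486-47546535, minus strand), was 67.6 to 74.9 CPM in controls, 63.2 to 96.7 in ethanol and 61.6 to 73.8 in withdrawal rats. Its highest value was in ethanol rat 1, which also had the highest sum of 8 thalamic markers (1747 CPM, against 283.8 to 1045 in the others), and its log2 CPM correlated with that sum at r = 0.84 over 18 rats. Acss1, the mitochondrial acetyl-CoA synthetase (chr3:146420346-146470293, minus strand), was 49.8 to 59.7 CPM in controls, 47.6 to 64.9 in ethanol and 41.9 to 61.4 in withdrawal rats, with a log2 fold change of -0.02 ± 0.082 (SE; q = 0.936 by limma-voom) for withdrawal vs. control.

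The balance between paired enzymes of the same reaction was read as a ratio per kilobase. Acss2 over Acss1 was 2.42 ± 0.190 in controls, 2.27 ± 0.418 in ethanol and 2.16 ± 0.344 in withdrawal rats (SD, n = 6 each), with overlapping ranges. Aldh1b1 over Aldh2, both mitochondrial, was 0.166 ± 0.0123 in controls, 0.136 ± 0.0121 in ethanol and 0.138 ± 0.0186 in withdrawal rats. The similar ratios came from different genes, since Aldh2 had the higher mean in ethanol rats (89.5 against 72.4 CPM in controls) and Aldh1b1 the lower mean in withdrawal rats (10.2 against 12.9 CPM). These ratios were not tested.

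Among themselves the 10 enzymes varied together only loosely. Of 45 pairs, 34 had a positive correlation of log2 CPM over the 18 rats after subtraction of group means, with a median r of 0.17. The 3 highest were within the aldehyde dehydrogenases, with Aldh2 and Aldh1b1 at 0.64, Aldh1b1 and Aldh3a2 at 0.62, and Aldh2 and Aldh3a2 at 0.60. The synthetases Acss1 and Acss2 had r = -0.40, and the lowest r, -0.55, was between Aldh9a1 and Acss2. The points share libraries and tissue content, and these values are descriptions.

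Each enzyme was also matched to the tested genes whose log2 CPM followed it most closely on the same measure (Pearson r over 18 rats, group means subtracted, the best of 17853). For Aldh2 these were Myo5c (0.95), Igfbp2 (0.95) and Ppp1r3b (0.94), the highest likeness among the 10. For Acss2 they were Msmo1 (0.81), Tmem267 (0.80) and Hmgcs1 (0.79), and for Aldh1b1 Tbc1d19 (0.82), Wars2 (0.82) and Acadl (0.82). Adh1c was nearest to Erich3 (0.90), Hebp2 (0.90) and Lrmda (0.90), and Adh5 to Slc25a20 (0.87), Cimip2b (0.81) and Ift56 (0.81). Aldh3a2 was nearest to Impa2 (0.91), Irag1 (0.90) and Adarb1 (0.90), Cat to App (0.84), Slc2a6 (0.83) and Dnajc10 (0.82), and Acss1 to Paox (0.82), Grlf1-ps1 (0.81) and Cyp26b1 (0.80). Aldh1a1 had Tnfrsf4 (0.80), Vars2 (0.80) and Tph2 (0.79), and Aldh9a1 had Calb1 (0.77), Ctbp2 (0.76) and LOC103694460 (0.72).

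Of 41 further genes of these pathways, grouped by role, 40 were in the files and 32 were tested. In withdrawal vs. control 3 were DE, all lower and all among the 12 aldehyde dehydrogenases tested, beside 5.41% of all genes DE and 2.55% DE and lower, with a median log2 fold change of -0.06 over the 32 genes. In ethanol vs. control 0 were DE by limma-voom, beside 0.493% of all genes DE (88 genes), and the median was -0.01. At an unadjusted p under 0.05 there were 4, beside 12.5% of all genes. By DESeq2 and by edgeR 0 were DE, beside 429 and 96 genes in all. In withdrawal vs. ethanol 1 was DE and lower, beside 2.72% of all genes DE and 1.49% DE and lower, and the median was -0.02. Leaving out single rats moved the withdrawal vs. control count between 0 and 5, and it was 0 without withdrawal rat 6.

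Aldh1l1, the cytosolic formyltetrahydrofolate dehydrogenase that also marks astrocytes, fell from 29.3 ± 2.26 CPM in controls to 23.04 ± 4.94 in withdrawal (SD, n = 6), with q = 0.0487 by limma-voom for a log2 fold change of -0.41 ± 0.10 (SE). Below every control lay 4 of 6 withdrawal rats, while withdrawal rat 5 at 29.9 CPM was well inside the control range. The summed CPM of 8 astrocyte markers was 4530 to 4972 in controls and 4267 to 5687 in withdrawal rats, 5 of which lay above every control. Gene by gene these markers split, with 4 of 8 higher and 4 lower in withdrawal (median log2 fold change 0.0066 by limma-voom). Aldh3b2, which acts on lipid aldehydes, was 6.04 to 8.78 CPM in controls and 2.60 to 7.02 in withdrawal rats (log2 fold change -0.51 ± 0.14, q = 0.0650). Only withdrawal rats 1 and 5, at 2.60 and 2.79 CPM, lay below every control, and these are the rats of lowest hippocampal marker sum, without which its log2 fold change was -0.30 (q = 0.150). Aldh5a1, the succinate semialdehyde dehydrogenase that ends GABA breakdown, had log2 fold change -0.15 ± 0.042 (q = 0.0784) between ranges of 172.5 to 195.7 CPM in controls and 147.7 to 200.7 in withdrawal rats. Adhfe1, a mitochondrial iron-containing alcohol dehydrogenase that oxidizes gamma-hydroxybutyrate, was the gene DE in withdrawal vs. ethanol, at 32.4 to 44.8 CPM in ethanol and 29.4 to 40.9 in withdrawal rats (log2 fold change -0.24 ± 0.057, q = 0.0578). Without withdrawal rat 6 none of these 4 genes was DE in its comparison, and Aldh5a1 was then at -0.10 (q = 0.353). Without withdrawal rats 1 and 5 Aldh1l1 (-0.33, q = 0.150) and Aldh5a1 (-0.11, q = 0.311) were not DE either, and with the choroid plexus sum in place of the surrogate variables none of the 4 genes was DE (q = 0.252 to 0.533). Of 18 fits with a rat left out, Aldh5a1 was not DE in 9, Aldh3b2 in 7, Adhfe1 in 3 and Aldh1l1 in 2. None of the 4 was DE without surrogate variables, and with 5 of them Aldh5a1 was at -0.10 (q = 0.371), Aldh3b2 at -0.32 (q = 0.191) and Aldh1l1 at -0.29 (q = 0.161). With 1 surrogate variable Aldh3b2 (q = 0.164) and Aldh5a1 (q = 0.139) were not DE. With no filter 1 pathway gene was DE in withdrawal vs. control. Adhfe1 was at -0.23 without surrogate variables (q = 0.161) and at -0.12 with the index set then added (q = 0.765), and it was also not DE with no filter, with only the groups compared (q = 0.178) or with a replicate block (q = 0.149).

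Of the genes named here, Akr1a1 and Acly stood above all 10 enzymes per kilobase, and the others stood below Aldh2. In the list kept beside the alcohol-oxidizing enzymes, Akr1a1 had 264.3 ± 4.18 RPKM in controls, and Adh6a had 0 counts. Akr1a1 is an aldehyde reductase, so its level is not a level of ethanol-oxidizing RNA. Among other aldehyde dehydrogenases the highest was Aldh5a1 with 34.1 ± 1.67 RPKM and the lowest the gene ID that RefSeq now names Aldh18a1, with 8 counts in the 18 rats. For acetate and acetyl-CoA handling, Acly, the ATP citrate lyase that makes cytosolic acetyl-CoA from citrate, had 51.4 ± 3.28 RPKM and Acot12 0.0253 ± 0.0151. Of peroxisomal genes that make hydrogen peroxide or import proteins, the lowest was Acox2 with 0.157 ± 0.0758 RPKM. Phospholipase D, which forms phosphatidylethanol when ethanol is present, was read as Pld2 at 11.2 ± 0.531 RPKM and Pld1 at 3.89 ± 0.343.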

How the data were processed

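Poly(A)-selected, strand-specific libraries were sequenced as paired reads. Per the file headers and the submitters' processing notes, the authors aligned reads with STAR 2.5.2a to Rnor_6.0 (NCBI annotation 106) and deposited raw counts of read pairs per gene from featureCounts 1.5.0, reverse-stranded and without multimapping reads. No exon of the 10 genes overlapped another gene. Gene IDs were named from the RefSeq GRCr8 table (29322 of 38445 matched).

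Counts were scaled by TMM in edgeR 4.0.16, and limma 3.58.1 (voom) was fitted to genes above 0.5 CPM in 1 or more rats, with 3 surrogate variables from sva 3.50.0 (prior count 2) and the 18 rats in one model, with Benjamini-Hochberg q over all genes. The study states surrogate variables but the number 3 was chosen here. The fit was tested on simulated data. RPKM is TMM-scaled CPM per kilobase of the files' exon length. Single genes had exact permutation tests of mean log2 CPM over 6 against 6 rats (30 comparisons, raw p). Replicates of a group differed by more than sampling noise (chi-square per degree of freedom at least 5.74 in 45 pairs).

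All 10 enzymes are described. Other pathway genes are named where DE or where highest or lowest of their list per kilobase, and 3 nearest genes by correlation for each enzyme. A gene that this rule names is not reported here. The members and lists were chosen with earlier results of these data known. Alternatives were 0, 1, 2, 4 or 5 surrogate variables, edgeR, DESeq2 1.42.0, quality weights, 2 scalings, 2 filters, q < 0.05, only the groups compared, a replicate block, an index-set term without surrogate variables, each rat left out, and, chosen after seeing the data, a choroid plexus term without surrogate variables and the omission of 2 rats. Depth limits the low genes: counting error alone covers the limit at 0 counts. Promoters of Aldh2 and Acss1 were not used here.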

Additional observations from a re-analysis of the deposited data

Results flagged for a closer look

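Of 30 sets of 6 rats (10 genes in 3 groups), 3 had a rat whose gap to its nearest neighbour, as a share of the set's range, was above Dixon's critical value for 6, and chance marks about 1 in 20 groups. Adh1c in withdrawal rat 5 was 1.02 CPM, the highest of its group, with a gap of 0.778 of the range. Aldh2 in control rat 3 was 63.5 CPM, the lowest control, with a gap of 0.766, and this rat also had the lowest choroid plexus marker sum of the controls (1116 CPM). Aldh9a1 in control rat 5 was 25.8 CPM, the lowest control, with a gap of 0.871.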

How the results depend on the processing

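The Acss2 and Aldh1b1 decreases in withdrawal vs. control kept their sign under all 17 alternatives and with each of 18 rats left out. The calls, and the counts of DE genes, moved with the surrogate variables and with single rats, and the cause was not tested. Depth limited only Adh1c among the 10 enzymes.

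W/C, E/C and W/E stand here for withdrawal vs. control, ethanol vs. control and withdrawal vs. ethanol. The reported counts were 2, 0 and 0 enzymes, 3, 0 and 1 other pathway genes, and 965, 88 and 486 genes in all, and counts over 1.5 times away from these follow. With q < 0.05 there was 1 enzyme in W/C, 1 pathway gene in W/C and 0 in W/E, and 370, 10 and 112 genes in all. With no surrogate variables there were 0 enzymes in W/C and 3 in W/E, 0 pathway genes in both, and 41 genes in W/C and 50 in E/C. With 1 there were 0 enzymes in W/C and 3 in W/E, 1 pathway gene in W/C and 3 in W/E, and 112, 258 and 1492 genes. With 2 there were 594 genes in W/C and 260 in W/E. With 4 there were 5 pathway genes in W/C and 2 in W/E, and 221 genes in E/C and 896 in W/E. With 5 there were 0 enzymes in W/C, 0 pathway genes in W/C and 4 in W/E, and 262, 322 and 871 genes. DESeq2 gave 2 enzymes in W/E, 5 pathway genes in W/C and 3 in W/E, and 1545, 429 and 1100 genes. Quality weights gave 2 enzymes and 3 pathway genes in W/E, and 440 genes in E/C and 1073 in W/E. The edgeR test and the filter on 6 rats each gave 2 pathway genes in W/E, and total-count scaling gave 5 in W/C. With no filter there was 1 pathway gene in W/C and 0 in W/E, and 486, 9 and 166 genes. With only the groups compared there were 28 genes in E/C and 0 in W/E, and 0 pathway genes in W/E. The index-set term, which only W/E allowed and which also replaced the surrogate variables, gave 0 genes and 0 pathway genes, against 621 genes in W/E with no surrogate variables and no such term. With that term W/E rests on withdrawal rats 1 and 2 against the ethanol rats. Without withdrawal rats 1 and 5 there were 0 enzymes and 0 pathway genes in W/C, 2 pathway genes in W/E, and 290 genes in W/C and 342 in E/C. With the choroid plexus term in place of the surrogate variables there were 0 enzymes in W/C, 0 pathway genes in W/C and W/E, and 52, 5 and 1 genes. These last 2 alternatives were chosen after seeing the data.

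The replicate numbers come from sample titles, which do not say whether same-numbered rats were paired. The paper states that rats were pair fed, and whether the numbers follow those pairs is not known. Deviations of same-numbered rats from their group means correlated at -0.325 to 0.383 (median -0.0732 over 18 pairs, against 0.0353 over 90 others). With the number as a replicate block there were 5 pathway genes in W/C and 0 in W/E, and 33 genes in E/C and 1 in W/E. The replicate block left 2 enzymes DE in W/C, and turned the sign of 3 W/E values, for Aldh1a1 (0.195), Aldh9a1 (-0.0221) and Cat (0.0280).

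With each rat left out, W/C gave 0 to 2 enzymes, 0 to 5 pathway genes and 23 to 1920 genes, lowest for genes without withdrawal rat 6 and highest without withdrawal rat 2. E/C gave 0 (without control rat 4) to 258 genes (without ethanol rat 5). W/E gave 0 to 3 enzymes, 0 to 5 pathway genes and 0 to 1797 genes, with 0 genes without ethanol rat 2, ethanol rat 3 or withdrawal rat 6 and the most without ethanol rat 5. The log2 fold changes that crossed 0 in this way were not DE in the comparison they belong to, as reported. In W/C these were Adh1c (-0.256 to 0.214), Aldh2 (-0.0143 to 0.0444), Aldh1a1 (-0.185 to 0.0210) and Acss1 (-0.0974 to 0.0645). In E/C they were Aldh1b1 (-0.138 to 0.00762) and Acss2 (-0.0457 to 0.0228). In W/E they were Aldh1a1 (-0.124 to 0.0859), Aldh3a2 (-0.0375 to 0.0468), Aldh9a1 (-0.0178 to 0.0458) and Cat (-0.0608 to 0.0679).

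The other signs that turned also belong to values that were not DE. For W/C, Adh1c was -0.112, -0.0340 and -0.104 with 1, 4 and 5 surrogate variables, -0.0851 with no filter, -0.0163 with only the groups compared and -0.174 without withdrawal rats 1 and 5. Aldh2 was -0.0601 and -0.0340 with 0 and 1 surrogate variables. Acss1 was 0.00487 and 0.0150 with 1 and 5, 0.00578 with quality weights and 0.0178 without withdrawal rats 1 and 5. For E/C, Aldh1b1 was 0.0171 and 0.0165 with 0 and 1 surrogate variables and 0.00269 with the choroid plexus term, and Aldh3a2 was 0.0632, 0.0644 and 0.0475 under the same settings. For W/E, Aldh1a1 was 0.0232 with no surrogate variables, 0.0128 by edgeR, 0.0111 by DESeq2, 0.00144 with the filter on 6 rats, 0.0222 with only the groups compared and 0.0356 with the index-set term. Aldh9a1 was -0.00169 with 5 surrogate variables and -0.0427 with the index-set term, and its mean log2 CPM difference was -0.00569 with total-count scaling. Aldh3a2 was 0.00567 without withdrawal rats 1 and 5.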
